A study of Mus musculus with 15 samples.

Results

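Bone marrow-derived macrophages (BMDMs), macrophages grown from mouse bone marrow for 7 days in medium with the growth factor M-CSF at 20 ng/ml, were stimulated for 24 h with IL-13 at 40 ng/ml alone (IL-13) or with IL-13 at 40 ng/ml and IL-6 at 40 ng/ml (IL-13/IL-6). The 3 RNAseq libraries of IL-13/IL-6 were compared with the 3 libraries of IL-13, which are 6 of the 15 libraries of the series, and both directions of change are described over all expressed genes. The other 9 libraries came from cells labelled control, from cells given IL-4 at 10 ng/ml, and from cells given IL-4 at 10 ng/ml with IL-6 at 40 ng/ml (IL-4/IL-6), 3 in each group. No group received IL-6 alone, and M-CSF-grown cells are common to all groups. The study describes its RNAseq libraries from cells given IL-4 as biological replicates, but the labels of the IL-13 libraries only number them and do not name separate animals or cultures, and p-values measure the spread between these libraries. The mouse strain is not given for these cultures in the sources used here.

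IL-13 is a type 2 cytokine that acts on macrophages through a receptor chain shared with IL-4, IL4Rα, and the transcription factor STAT6, and it drives the alternative (M2) program that includes the mannose receptor. IL-6 acts through its receptor and the shared signal chain gp130 on STAT3, which also induces SOCS3, a feedback inhibitor of gp130 signaling. The comparison asks what IL-6 adds to or takes from the transcriptome of macrophages that are already exposed to IL-13.

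The libraries held 17198060 to 18842203 counted reads in IL-13 and 17806244 to 18676279 in IL-13/IL-6, and 13938 genes passed the filter on low counts. Levels are given as normalized CPM (read counts scaled to a common library total with TMM factors), in the order of replicates 1, 2 and 3. A gene was called when its adjusted p in edgeR's quasi-likelihood test was under 0.05. Replicates differed with a biological coefficient of variation of 10.9% in IL-13 and 7.38% in IL-13/IL-6. IL-13 replicate 1 stood apart: its deviation from the other 2 IL-13 libraries fell with gene length (Spearman's rho -0.42 across genes), with a median of -0.25 on the log2 scale for genes over 8000 bases and 0.21 for genes under 2000 bases. In IL-13/IL-6, replicate 3 had higher levels of interferon-stimulated genes than the other 2 (median difference 0.86 on the log2 scale). Without both of these libraries, 1258 genes were called higher and 1620 lower, and 2670 of the 3563 calls made with all libraries were made again with the same sign. How the counting treated strand is not given in the sources used here, so reads of genes that overlap cannot be told apart. Summed markers of stromal cells, of T and NK cells and of erythroid cells were at most 0.482, 0.890 and 0.578 normalized CPM in any of the 6 libraries, B cell markers summed to 17.2 to 21.4 in the same libraries, and granulocyte and precursor markers to 21.7 to 24.8 in IL-13 and 13.2 to 13.6 in IL-13/IL-6 (2 of 13 tested lower). The macrophage markers summed to 17350.4 to 20101.4 in IL-13 and 14540.4 to 15451.2 in IL-13/IL-6, with 4 of 10 called higher, 3 lower and a median log2 fold change of 0.09.

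Adding IL-6 to IL-13 changed 3563 genes, 25.6% of those tested. Of these, 1684 were higher (12.1%) and 1879 were lower (13.5%) in IL-13/IL-6. Counts of list members called higher or lower can be read against these shares. Called or not, 18.5% of the genes tested had every IL-13/IL-6 library above every IL-13 library and 19.3% had every one below. The median log2 fold change over all genes was 0.01, and 10375 genes were not called. A log2 fold change above 1.5 was reached by 228 of the genes called higher (1.64%), and one below -1.5 by 270 of the genes called lower (1.94%). The higher genes gained a summed 107714 normalized CPM and the lower genes lost 71086 between the group means. In bulk RNA, fewer cells of a type and less RNA per cell cannot be told apart.

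**Figure D1:**
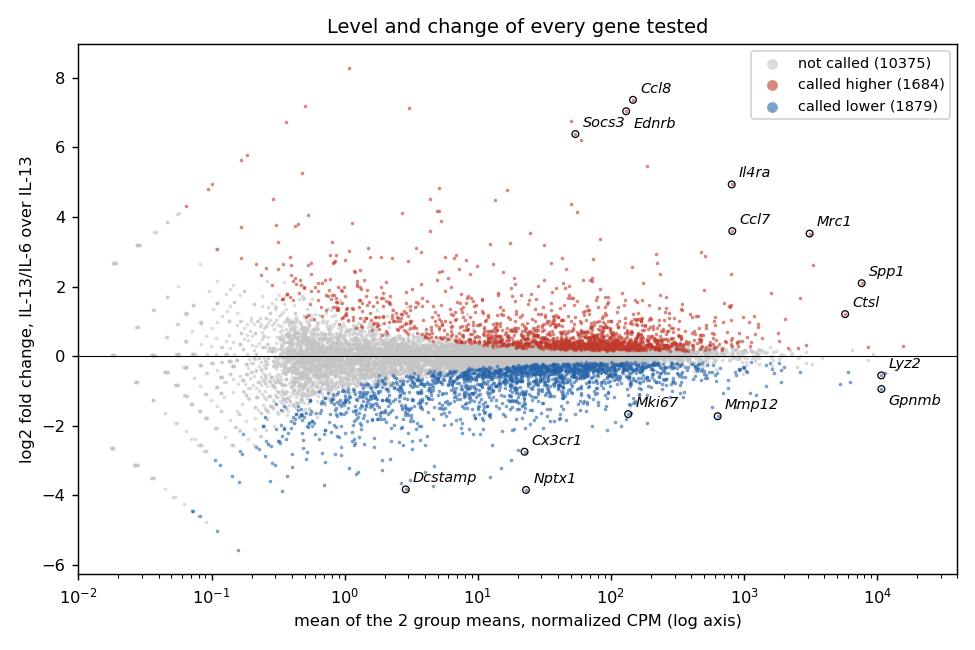
Log2 fold change of IL-13/IL-6 over IL-13 against the mean level of each of the 13938 genes tested (normalized CPM, log axis). Red points are the 1684 genes called higher, blue points the 1879 called lower and gray points the 10375 not called; abundant genes such as Mrc1 and Spp1 are among those called higher.

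The STAT3 target Socs3 was among the most changed genes. Its promoter and that of Fgl2, another gene that rose strongly, are shown because both hold the letters TTCNNNGAA, the spaced palindrome that STAT dimers are known to bind (RefSeq, GRCm38.p6; capitals mark the match, and the stretch of each gene is read on its own strand, chr11:117969487-117969545 on the minus strand for Socs3 and chr5:21372612-21372670 on the plus strand for Fgl2):
Socs3: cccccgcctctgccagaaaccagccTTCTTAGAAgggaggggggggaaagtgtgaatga
Fgl2: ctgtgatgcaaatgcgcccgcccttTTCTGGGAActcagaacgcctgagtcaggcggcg
The match lies 146 bases before the start in Socs3 and 28 bases before it in Fgl2. These letters, which read the same on both strands, were found within 250 bases before to 50 bases after a start in 9.55% of the 27025 genes in the promoter table and in 8.19% of the 9984 tested genes it holds. Among the genes called with a log2 fold change above 1.5, 20 of the 162 with a promoter held them (12.3%), and among those below -1.5 it was 12 of 189 (6.35%).

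Socs3 (chr11:117966079-117970047) had 1.66, 1.13 and 1.03 normalized CPM in IL-13 and 105, 106 and 109 in IL-13/IL-6. All 3 IL-13/IL-6 libraries were far above the IL-13 libraries, which were also below the control mean of 8.73 (log2 fold change 6.39 ± 0.18 (SE), adjusted p = 9.83e-14). Fgl2, which encodes a secreted fibrinogen-like protein, had 4.12, 7.71 and 6.23 normalized CPM in IL-13 and 104, 103 and 111 in IL-13/IL-6 (log2 fold change 4.14 ± 0.13 (SE), adjusted p = 3.47e-13). Stat3 itself rose, from 84 to 259.7 normalized CPM on average (log2 fold change 1.63 ± 0.08 (SE), adjusted p = 5.6e-11). The receptor genes moved less: Il6st, which encodes gp130, had log2 fold change 0.58 ± 0.14 (SE), adjusted p = 0.00392, and Il6ra, which encodes the IL-6-binding chain, was not called (log2 fold change 0.17 ± 0.08 (SE), adjusted p = 0.152). Stat6, which carries the IL-13 signal, was not called either, with group means of 301 and 273 normalized CPM (log2 fold change -0.14 ± 0.07 (SE), adjusted p = 0.161). Of 29 tested genes on a list of IL-6 and STAT3 responses, 20 were called higher and 4 lower, with a median log2 fold change of 1.01. Besides Socs3, its largest rises were those of Il4ra, Timp1, Arid5a and Il10. The members called lower included Vegfa, Tnfrsf1b and Fos.

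Il4ra (chr7:125552120-125579474) encodes the receptor chain through which IL-13 signals. It had 49.6, 51.5 and 51.7 normalized CPM in IL-13 and 1527, 1547 and 1612 in IL-13/IL-6. The groups were separated about 30.7-fold, and the libraries within each were close (log2 fold change 4.94 ± 0.08 (SE), adjusted p = 5.06e-17), and IL-13 alone was below the control mean of 90.2. Of 18 tested genes of IL-4 and IL-13 signaling, 8 were called higher and 1 lower. This list shares Socs3 with the list of IL-6 and STAT3 responses, so the counts of these lists are not separate. Jak3, a kinase of cytokine receptors, rose from 24.7 to 79.3 normalized CPM (log2 fold change 1.69 ± 0.09 (SE), adjusted p = 2.96e-10).

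**Figure D2:**
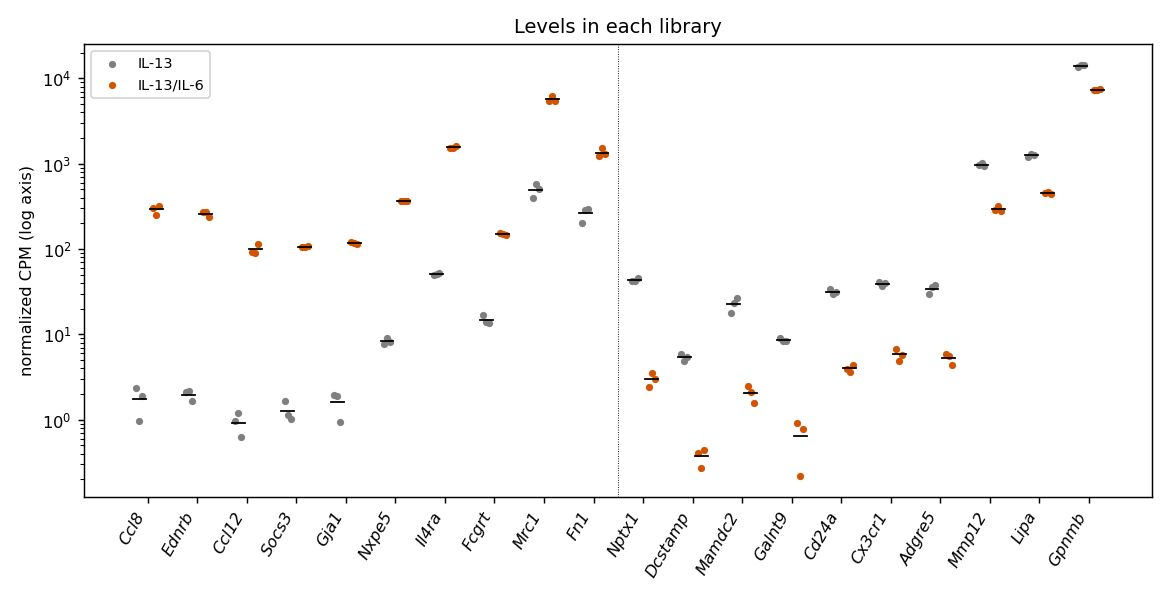
Normalized CPM (log axis) of 20 genes in each of the 3 IL-13 libraries (gray) and the 3 IL-13/IL-6 libraries (orange), with the group mean as a bar. The 10 genes on the left were higher and the 10 on the right lower in IL-13/IL-6, and their groups do not overlap, which was a condition for choosing the genes named for the size of their fold change.

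The alternative activation genes split. Of 30 tested, 17 were called higher and 10 lower, with a median log2 fold change of 0.62. Mrc1 (chr2:14229392-14332057), the mannose receptor CD206, had 401, 577 and 509 normalized CPM in IL-13 and 5480.1, 6190.3 and 5464 in IL-13/IL-6. The lowest IL-13/IL-6 library was several times above the highest IL-13 library (log2 fold change 3.53 ± 0.11 (SE), adjusted p = 2.94e-13). Chil3, a chitinase-like secreted protein, changed less, from 190.0 to 354 normalized CPM (log2 fold change 0.9 ± 0.07 (SE), adjusted p = 2.41e-08). Cd163, the hemoglobin scavenger receptor, and Cdh1, the adhesion molecule E-cadherin, were also higher, with log2 fold changes of 1.67 and 1.52. In the other direction, Retnla, a small secreted protein that is a standard marker of the same program, had 56.2, 49.7 and 47.4 normalized CPM in IL-13 and 22.3, 24.3 and 22.8 in IL-13/IL-6. Its groups did not overlap either, and it fell (log2 fold change -1.14 ± 0.16 (SE), adjusted p = 5.89e-05). The transcription factors Irf4 and Egr2 fell as well: Irf4 had 9.47, 12.9 and 13.6 normalized CPM in IL-13 and 2.89, 3.04 and 2.67 in IL-13/IL-6 (log2 fold change -2.06 ± 0.15 (SE), adjusted p = 7.65e-09), and Egr2 went from 88.6 to 34.5 (log2 fold change -1.36 ± 0.08 (SE), adjusted p = 4.04e-10). Cd36, a scavenger receptor for oxidized lipoprotein, and Igf1, a growth factor, had log2 fold changes of -0.73 and -0.54. A list of 22 tested genes that the study named held 17 called higher and 2 lower, but the study chose its genes partly on libraries of this series, so that count is not independent evidence of a direction.

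**Figure D3:**
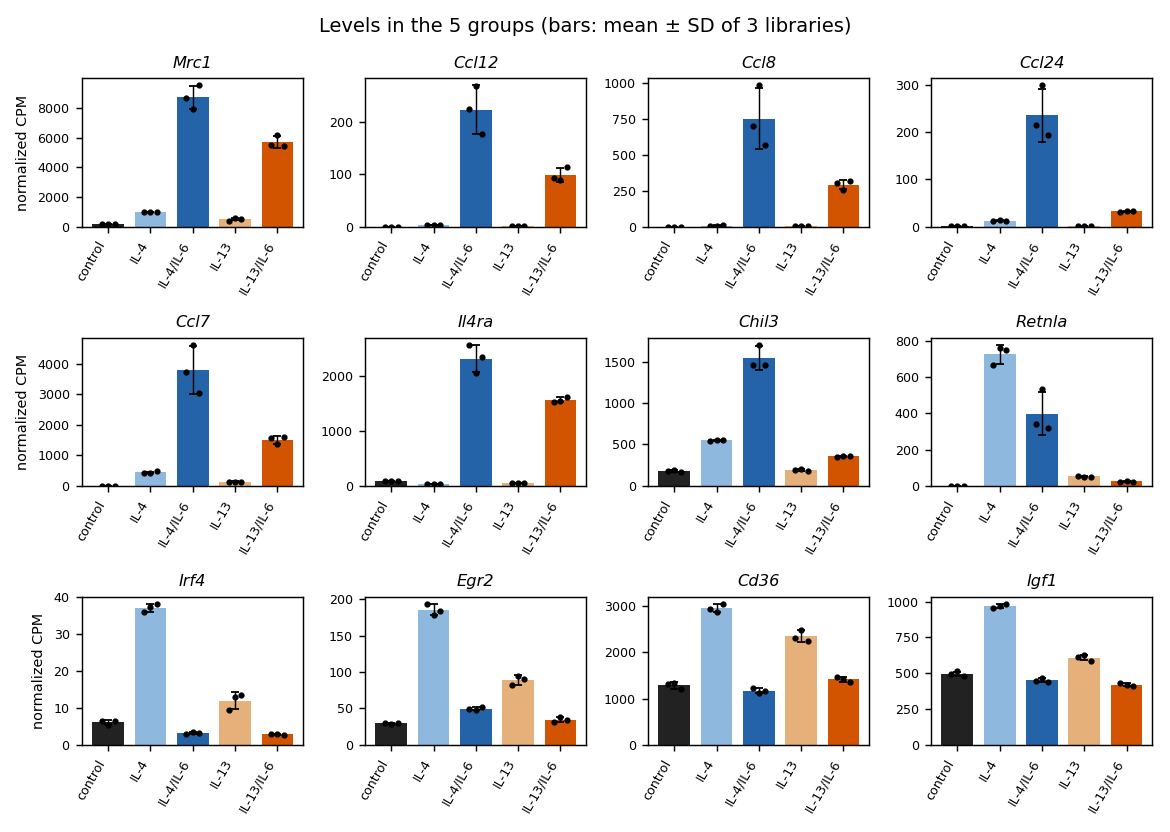
Normalized CPM of 12 alternative activation and receptor genes in the 5 groups (bars are the mean and SD of 3 libraries, points the libraries). Mrc1, Ccl12, Ccl8, Ccl24, Ccl7, Il4ra and Chil3 were higher with IL-6 than without it, whereas Retnla, Irf4, Egr2, Cd36 and Igf1 were lower.

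IL-4 and control libraries, which are not part of the comparison, gave 350 genes that IL-4 raised over control (adjusted p under 0.05 and log2 fold change above 2, 2.51% of the genes tested). In IL-13/IL-6 against IL-13, 95 of them were called higher and 93 lower, and 162 were not called. The median log2 fold change was -0.04. The share called was 27.1% higher and 26.6% lower, against 12.1% and 13.5% of all genes. The largest rises among them included Ccl8, Ccl12, Ccl24, Slc9a2 and Ascl2, and the largest falls included Dcstamp, Serpinb9b, Mboat2 and Ocstamp. Serpinb9b had 1.98, 2.64 and 2.06 normalized CPM in IL-13 and 0.173, 0.108 and 0.334 in IL-13/IL-6 (log2 fold change -3.4 ± 0.37 (SE), adjusted p = 1.71e-06). The control and IL-4 libraries that gave the list also differed in summed markers of other cells, and the part of such cells in it was not tested.

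Among genes with at least 5 normalized CPM in the higher group, Ccl8 had the largest rise. Ccl8 (chr11:82115185-82116799), a chemoattractant of monocytes and T cells, had 2.35, 0.957 and 1.91 normalized CPM in IL-13 and 302, 254 and 317 in IL-13/IL-6 (log2 fold change 7.37 ± 0.30 (SE), adjusted p = 5.13e-11). Its neighbors on chromosome 11 rose too: Ccl12 had 0.963, 1.18 and 0.618 normalized CPM in IL-13 and 93.1, 89.1 and 115 in IL-13/IL-6, and Ccl7 had 135, 127 and 111 normalized CPM in IL-13 and 1554, 1366 and 1596 in IL-13/IL-6. None of their IL-13 libraries reached the lowest IL-13/IL-6 library (log2 fold change 6.75 ± 0.22 (SE), adjusted p = 6.79e-12 for Ccl12 and log2 fold change 3.6 ± 0.14 (SE), adjusted p = 3.47e-12 for Ccl7). Ccl2, the main monocyte chemoattractant, went from 122 to 897 normalized CPM (log2 fold change 2.88 ± 0.12 (SE), adjusted p = 6.79e-12). These 4 genes are close paralogs, and reads that match several of them could have been assigned to any. Ccl24, a ligand of the eosinophil receptor CCR3, had 1.07, 1.18 and 1.24 normalized CPM in IL-13 and 30.2, 33.1 and 32.7 in IL-13/IL-6 (log2 fold change 4.77 ± 0.20 (SE), adjusted p = 9.74e-12). Over 23 tested chemokine genes, 11 were called higher and 2 lower (median log2 fold change 1.15), and Cxcl14 fell (log2 fold change -1.65 ± 0.14 (SE), adjusted p = 8.39e-08). Among 14 chemokine receptor genes, 3 were higher (21.4%, against 12.1% of all genes) and 4 lower (28.6%, against 13.5%), and only 1 was lower without IL-13 replicate 1 and IL-13/IL-6 replicate 3. Ccr1 and Ccr3, which lie together on chromosome 9, rose with log2 fold changes of 2.1 and 1.98. Cx3cr1 (chr9:119901616-120069879), the fractalkine receptor of resident macrophages, had 41, 36.6 and 39.5 normalized CPM in IL-13 and 6.82, 4.88 and 5.78 in IL-13/IL-6 (log2 fold change -2.75 ± 0.14 (SE), adjusted p = 9.89e-11). Pf4, a chemokine gene of platelets and macrophages, rose from 75.4 to 389.8 normalized CPM (log2 fold change 2.37 ± 0.16 (SE), adjusted p = 4.15e-09). The summed megakaryocyte and platelet markers, which include Pf4, were at 80.0 to 96.7 in IL-13 and 356 to 428 in IL-13/IL-6; 2 of 9 were called higher and 1 lower, and the part of other cells in the result was not tested.

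The other large rises were spread over several kinds of genes. Ednrb, the receptor of endothelins, had 2.09, 2.14 and 1.65 normalized CPM in IL-13 and 269, 269 and 236 in IL-13/IL-6 (log2 fold change 7.04 ± 0.13 (SE), adjusted p = 1.02e-16). The gap junction gene Gja1 had 1.93, 1.91 and 0.927 normalized CPM in IL-13 and 122, 117 and 115 in IL-13/IL-6 (log2 fold change 6.22 ± 0.20 (SE), adjusted p = 3.55e-13). Nxpe5 had 7.76, 9.0 and 8.08 normalized CPM in IL-13 and 364, 369 and 370.1 in IL-13/IL-6 (log2 fold change 5.47 ± 0.08 (SE), adjusted p = 4.36e-18). In each of these genes the 3 libraries of a group lay close together relative to the gap between groups. Ascl2, a transcription factor, was at 1 count or fewer in every IL-13 library and at 5.2, 6.61 and 6.28 normalized CPM in IL-13/IL-6, which is at least 37.4-fold higher than a level of 3 counts per library. Itga1, Slc9a2, Cystm1, Ms4a4a, Cd38 and Pdgfc had log2 fold changes of 4.82, 4.51, 4.48, 4.39, 4.16 and 4.16. Itga1, a collagen-binding integrin chain, shares its locus with Pelo on the same strand, so reads of the pair cannot be told apart without knowing how the counting treated overlaps. Several Fc receptor genes rose. Fcgrt, which encodes the receptor that recycles IgG, had 16.6, 13.8 and 13.4 normalized CPM in IL-13 and 155, 151 and 147 in IL-13/IL-6 (log2 fold change 3.37 ± 0.14 (SE), adjusted p = 9.14e-12), and Fcgr2b, the inhibitory receptor for IgG, had 53, 65.5 and 61.9 normalized CPM in IL-13 and 386, 395 and 378 in IL-13/IL-6 (log2 fold change 2.68 ± 0.08 (SE), adjusted p = 9.74e-14). Of 20 tested pattern recognition and Fc receptor genes, 9 were higher and 3 lower, and Fcgr3, an activating receptor, rose with a log2 fold change of 1.12.

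The largest gains in normalized CPM, a scale on which long mRNAs also count for more, were in abundant genes. Spp1, encoding osteopontin, had 3256, 2666 and 2749 normalized CPM in IL-13 and 13139, 12265 and 11743 in IL-13/IL-6 (log2 fold change 2.1 ± 0.11 (SE), adjusted p = 1.46e-10). Mrc1, Ctsl, Ctsb, Dab2, Tgfbi, Eef1a1, Il4ra and Lgmn were also among the 10 largest gains. The lysosomal proteases Ctsl and Lgmn rose from 3461 to 8009 and from 1306 to 2726 normalized CPM, and Ctsb only from 14003 to 16999.5 (log2 fold change 0.28 ± 0.05 (SE), adjusted p = 0.000434). Lysosome and cathepsin genes split, with 8 of 30 tested higher (26.7%, against 12.1% of all genes) and 7 lower (23.3%, against 13.5%). Their median log2 fold change was -0.04. Eef1a1, a translation factor, rose little (log2 fold change 0.26 ± 0.07 (SE), adjusted p = 0.0096), and without IL-13 replicate 3 it was no longer called. Matrix genes moved both ways: Fn1, encoding fibronectin, had 202, 288 and 296 normalized CPM in IL-13 and 1233, 1509 and 1293 in IL-13/IL-6 (log2 fold change 2.36 ± 0.18 (SE), adjusted p = 1.95e-08), and Timp1, an inhibitor of metalloproteinases, rose (log2 fold change 3.55 ± 0.19 (SE), adjusted p = 1.89e-10), whereas the elastase Mmp12 and the plasminogen activator Plau had log2 fold changes of -1.72 and -1.47. Of 28 matrix and protease genes, 11 were higher and 6 lower. Scavenger receptors also split (10 higher and 6 lower of 23), with Cd5l up (log2 fold change 2.25 ± 0.10 (SE), adjusted p = 1.2e-11) and Axl, a receptor for apoptotic cells, down (log2 fold change -1.81 ± 0.11 (SE), adjusted p = 1.01e-09).

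Among genes with at least 5 normalized CPM in IL-13, Nptx1 and Dcstamp had the largest falls. Nptx1, a neuronal pentraxin, had 42.2, 41.6 and 45.3 normalized CPM in IL-13 and 2.43, 3.52 and 3.0 in IL-13/IL-6 (log2 fold change -3.84 ± 0.15 (SE), adjusted p = 4.74e-12). Dcstamp and Ocstamp encode proteins needed for the fusion of macrophages and osteoclast precursors. Dcstamp had 5.94, 4.84 and 5.35 normalized CPM in IL-13 and 0.405, 0.271 and 0.445 in IL-13/IL-6 (log2 fold change -3.83 ± 0.33 (SE), adjusted p = 9.43e-08), and Ocstamp had 3.96, 3.77 and 4.02 normalized CPM in IL-13 and 0.347, 0.65 and 0.50 in IL-13/IL-6 (log2 fold change -2.95 ± 0.26 (SE), adjusted p = 1.15e-07). Over 22 tested genes of cell fusion and osteoclast-like cells, 9 were lower and 2 higher, with Cd9 among those that fell (log2 fold change -1.17 ± 0.10 (SE), adjusted p = 1.04e-07). Cd24a, a surface sialoglycoprotein, went from 31.7 to 3.98 normalized CPM. Galnt9, Cav1, Mamdc2, Slc6a12, Zan, Adgre5, Abcg3, Mical1, Klhl3 and Ramp1 were also among the 15 largest falls among genes with at least 5 normalized CPM in IL-13, with log2 fold changes from -3.74 (Galnt9) to -2.44 (Ramp1). Cx3cr1, Adgre5 and Mical1 overlap other tested genes in the annotation.

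The largest losses in normalized CPM were in abundant macrophage genes. Gpnmb, a lysosomal glycoprotein, had 13693, 14174 and 14528 normalized CPM in IL-13 and 7302, 7278 and 7467 in IL-13/IL-6 (log2 fold change -0.94 ± 0.05 (SE), adjusted p = 2.88e-10). Lyz2, the macrophage lysozyme, had 14499, 11758 and 11953 normalized CPM in IL-13 and 8826, 8283 and 8949 in IL-13/IL-6 (log2 fold change -0.55 ± 0.10 (SE), adjusted p = 0.000269). Lyz2 and the ferritin gene Fth1 (log2 fold change -0.49 ± 0.13 (SE), adjusted p = 0.00716) were highest in IL-13 replicate 1, which stood apart. Without it, their log2 fold changes were -0.46 and -0.36, and both were still called by edgeR's test. Psap, Lpl, Lgals3, Cd36, Mpeg1, Anxa1 and Vim were the others of the 10 largest losses, and Mpeg1, the pore-forming protein perforin-2, fell from 1679.7 to 783 normalized CPM. Lipa, the lysosomal acid lipase that frees cholesterol from lipoprotein, went from 1259 to 454 (log2 fold change -1.47 ± 0.07 (SE), adjusted p = 2.78e-11).

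Cell division genes fell together. All 30 tested genes of mitosis were called lower, with log2 fold changes between -2.24 and -0.73 and a median of -1.45, against 13.5% called lower over all genes and a median of 0.01. Of 30 genes of the G1/S transition and DNA replication, 28 were lower (median -0.64). Ccnb2, a cyclin of mitosis, had 15.9, 12.7 and 16.7 normalized CPM in IL-13 and 3.41, 3.2 and 3.0 in IL-13/IL-6 (log2 fold change -2.24 ± 0.17 (SE), adjusted p = 2.07e-08). Mki67, the proliferation marker Ki-67, had 166, 217 and 230.3 normalized CPM in IL-13 and 63.4, 69.8 and 60.4 in IL-13/IL-6 (log2 fold change -1.66 ± 0.16 (SE), adjusted p = 2.57e-07), and Top2a, a DNA topoisomerase, had 186, 221 and 223 normalized CPM in IL-13 and 79.4, 89.9 and 76.7 in IL-13/IL-6 (log2 fold change -1.36 ± 0.09 (SE), adjusted p = 6.39e-09). Every IL-13/IL-6 library was below every IL-13 library for all 3, as for 19.3% of all genes tested. Cenpf and Nusap1, a kinetochore and a spindle protein, had log2 fold changes of -2.24 and -2.11. The S-phase genes Tk1 and Rrm2, which supply nucleotides, fell by more (log2 fold change -1.53 ± 0.10 (SE), adjusted p = 1.78e-09 and log2 fold change -1.41 ± 0.09 (SE), adjusted p = 2.37e-09) than the replication genes Mcm6 (log2 fold change -0.57 ± 0.05 (SE), adjusted p = 3.43e-07) and Pcna (log2 fold change -0.36 ± 0.09 (SE), adjusted p = 0.00849). Pcna was no longer called without IL-13 replicate 1 and IL-13/IL-6 replicate 3 (adjusted p = 0.0782).

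Promoters of mitosis genes are known for a cell cycle element, TTTGAA, that often stands near CCAAT boxes. These letters are shown in capitals in 3 members of the list, on either strand (RefSeq, GRCm38.p6; all on the minus strand, chr9:70421555-70421746 for Ccnb2, chr7:135716447-135716592 for Mki67 and chr11:99024190-99024439 for Top2a):
Ccnb2: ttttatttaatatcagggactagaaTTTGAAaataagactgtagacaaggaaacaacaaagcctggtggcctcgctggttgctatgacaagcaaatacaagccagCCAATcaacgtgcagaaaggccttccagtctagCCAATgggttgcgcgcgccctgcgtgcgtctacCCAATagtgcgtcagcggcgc
Mki67: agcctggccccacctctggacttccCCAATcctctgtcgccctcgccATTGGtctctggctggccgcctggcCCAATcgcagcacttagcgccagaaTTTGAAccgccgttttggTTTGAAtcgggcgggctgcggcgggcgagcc
Top2a: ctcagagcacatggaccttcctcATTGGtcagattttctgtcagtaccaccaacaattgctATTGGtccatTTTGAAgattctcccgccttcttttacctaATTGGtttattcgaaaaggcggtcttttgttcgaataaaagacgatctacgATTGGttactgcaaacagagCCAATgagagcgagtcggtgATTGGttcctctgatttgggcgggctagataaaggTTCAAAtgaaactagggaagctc
TTTGAA was found in 19 of the 26 mitosis genes with a promoter in the table (73.1%), against 14.6% of the tested genes and 20.2% of all genes in the table. CCAAT was found in 20 of the 26 (76.9%), against 42.9% and 41.1%. Among 25 genes of G1/S and DNA replication, TTTGAA was in 3 and CCAAT in 14. Both were searched on both strands and do not overlap each other, and a match describes letters only.

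Cholesterol synthesis genes rose together, with a median change smaller in size than that of the mitosis genes. Of 24 tested genes of cholesterol synthesis and uptake, 23 were called higher, with a median log2 fold change of 0.98 and a range from 0.32 to 1.58. Mvd, an enzyme of the mevalonate pathway, had 27.8, 24 and 31 normalized CPM in IL-13 and 79.4, 86.6 and 81.8 in IL-13/IL-6 (log2 fold change 1.58 ± 0.09 (SE), adjusted p = 3.76e-10). Fdft1, which makes squalene, went from 36.6 to 90.7 normalized CPM (log2 fold change 1.31 ± 0.09 (SE), adjusted p = 3.61e-09); it overlaps the abundant gene Ctsb on the opposite strand. Srebf2, the transcription factor of this pathway, rose by a log2 fold change of 0.52. The cholesterol exporters Abca1 and Abcg1 went the other way, with 25.8, 43.7 and 40.3 normalized CPM in IL-13 and 10.6, 15 and 12.2 in IL-13/IL-6 for Abca1 (log2 fold change -1.53 ± 0.18 (SE), adjusted p = 5.34e-06) and a log2 fold change of -1.38 for Abcg1. Over 14 tested genes of cholesterol efflux and related functions, 4 were higher (28.6%) and 3 lower (21.4%), with a median log2 fold change of -0.04. Over all genes the shares were 12.1% and 13.5%. CCAAT was found in the promoters of 16 of the 17 cholesterol synthesis and uptake genes in the table (94.1%), against 42.9% of the tested genes. The letters TCACNCCAC, a form of the sterol regulatory element, were found on either strand in 1 of the 17 (5.88%), against 1.36%.

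Chaperones of the endoplasmic reticulum showed small rises: 15 of 25 were called higher (median log2 fold change 0.28). Pdia4, a disulfide isomerase, had 221, 219 and 210.1 normalized CPM in IL-13 and 443, 430.4 and 434 in IL-13/IL-6 (log2 fold change 1.01 ± 0.06 (SE), adjusted p = 4.04e-10), and Manf and Creld2, proteins of the secretory pathway, had log2 fold changes of 0.76 and 0.67. The letters CCAAT and CCACG with 9 bases between them, known as an element of the unfolded protein response, were found on either strand in 7 of the 21 promoters of this list in the table (33.3%), against 0.17% of the tested genes; CCAAT is part of this element. Creld2 is shown as the example (RefSeq, GRCm38.p6, chr15:88819495-88819563, plus strand, with the element in capitals as its reverse complement):
Creld2: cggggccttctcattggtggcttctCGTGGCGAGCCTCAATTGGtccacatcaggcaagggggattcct
Its element ends 108 bases before the start.

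Genes of oxidative defense fell for the most part. Of 22 tested NRF2 and glutathione genes, 15 were lower and 3 higher (median log2 fold change -0.49). Slc7a11, the cystine importer, had 3.64, 7.99 and 5.05 normalized CPM in IL-13 and 0.925, 1.63 and 1.28 in IL-13/IL-6 (log2 fold change -2.11 ± 0.27 (SE), adjusted p = 1.03e-05), and Sod1 and Prdx1, which remove superoxide and peroxide, had log2 fold changes of -0.95 and -0.93. The members that rose were Sod2, Mt1 and Hmox1, and Hmox1, which degrades heme, had 814, 713 and 697 normalized CPM in IL-13 and 1777, 1485 and 1684 in IL-13/IL-6 (log2 fold change 1.15 ± 0.09 (SE), adjusted p = 1.52e-08). MHC class II genes included 6 lower of 13 tested, with Ciita, their transactivator, at 0.749, 1.69 and 1.03 normalized CPM in IL-13 and 0.173, 0.488 and 0.111 in IL-13/IL-6 (log2 fold change -2.11 ± 0.41 (SE), adjusted p = 0.000853), and Cd74, the invariant chain, with log2 fold change -0.62 ± 0.10 (SE), adjusted p = 0.000201.

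Immune regulators and other receptors moved in both directions. Cd209a, a lectin of dendritic cells and macrophages, had no counts in any IL-13 library and 2.08, 1.84 and 2.5 normalized CPM in IL-13/IL-6, which is at least 13.3-fold higher than a level of 3 counts per library. Tfrc, the transferrin receptor, had 176, 199 and 162 normalized CPM in IL-13 and 525, 491 and 501 in IL-13/IL-6 (log2 fold change 1.5 ± 0.07 (SE), adjusted p = 8.08e-11). Its libraries did not overlap between the groups. The checkpoint ligand genes Cd274 and Pdcd1lg2, which encode PD-L1 and PD-L2, had log2 fold changes of 0.93 and 1.33, while Havcr2, which encodes TIM-3, had 31.8, 34.5 and 33.3 normalized CPM in IL-13 and 9.65, 10.6 and 8.84 in IL-13/IL-6 (log2 fold change -1.77 ± 0.09 (SE), adjusted p = 1.01e-10). Of 13 costimulation and checkpoint genes, 3 were higher (23.1%, against 12.1% of all genes) and 6 lower (46.2%, against 13.5%), and Cd276 fell (log2 fold change -1.88 ± 0.30 (SE), adjusted p = 0.000111). Of 17 complement genes, 10 were higher (58.8%) and 2 lower (11.8%), with C4b at 0.749, 0.90 and 0.463 normalized CPM in IL-13 and 5.49, 7.16 and 5.78 in IL-13/IL-6 (log2 fold change 3.12 ± 0.31 (SE), adjusted p = 4.74e-07). Of 11 genes of the IL-1 family and its receptors, 5 were higher (45.5%) and 1 lower (9.09%): Il1rn, the IL-1 receptor antagonist, had a log2 fold change of 1.08, and Il1rl1, the receptor of IL-33, had 10.8, 16.5 and 14.5 normalized CPM in IL-13 and 1.79, 5.47 and 2.5 in IL-13/IL-6 (log2 fold change -2.08 ± 0.28 (SE), adjusted p = 1.81e-05). The anti-inflammatory cytokine gene Il10 had 1.93, 1.07 and 1.75 normalized CPM in IL-13 and 14.3, 11.4 and 10.7 in IL-13/IL-6 (log2 fold change 2.92 ± 0.30 (SE), adjusted p = 7.86e-07). Adora3, an adenosine receptor, rose by a log2 fold change of 2.78, and 6 of 18 genes of extracellular ATP and adenosine were higher (33.3%) and 4 lower (22.2%). Dendritic cell markers summed to 386 to 407 normalized CPM in IL-13 and 250 to 263 in IL-13/IL-6 (1 of 9 tested higher, 1 lower), monocyte markers to 200 to 222 and 364 to 381 (2 of 7 higher, 1 lower), and basophil, mast cell and eosinophil markers to 10.0 to 14.5 and 3.89 to 4.34 (2 of 9 lower), and the part of such cells in these results was not tested.

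None of 30 respiratory chain genes was called by edgeR's test (median log2 fold change 0.06), although 1 had an unadjusted p under 0.05, and DESeq2 called 0. Without the filter on low counts, edgeR's test called 2 of them higher. Of 38 interferon-stimulated genes, 3 were higher and 1 lower with all libraries. With IL-13 replicate 1 and IL-13/IL-6 replicate 3 left out, 7 were lower, whereas 7 were higher in a fit of 9 libraries (IL-13, IL-13/IL-6 and control) and 15 without the filter on low counts. Their summed level was 2561.6 normalized CPM in IL-13/IL-6 replicate 3 against 1697.5 and 1795.6 in the other 2. Acute-phase genes included 5 higher of 9 (55.6%, against 12.1% of all genes), or 3 in a fit of the 6 IL-13 and IL-13/IL-6 libraries alone, among them Saa3 (log2 fold change 1.59 ± 0.26 (SE), adjusted p = 0.000158).

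**Figure D4:**
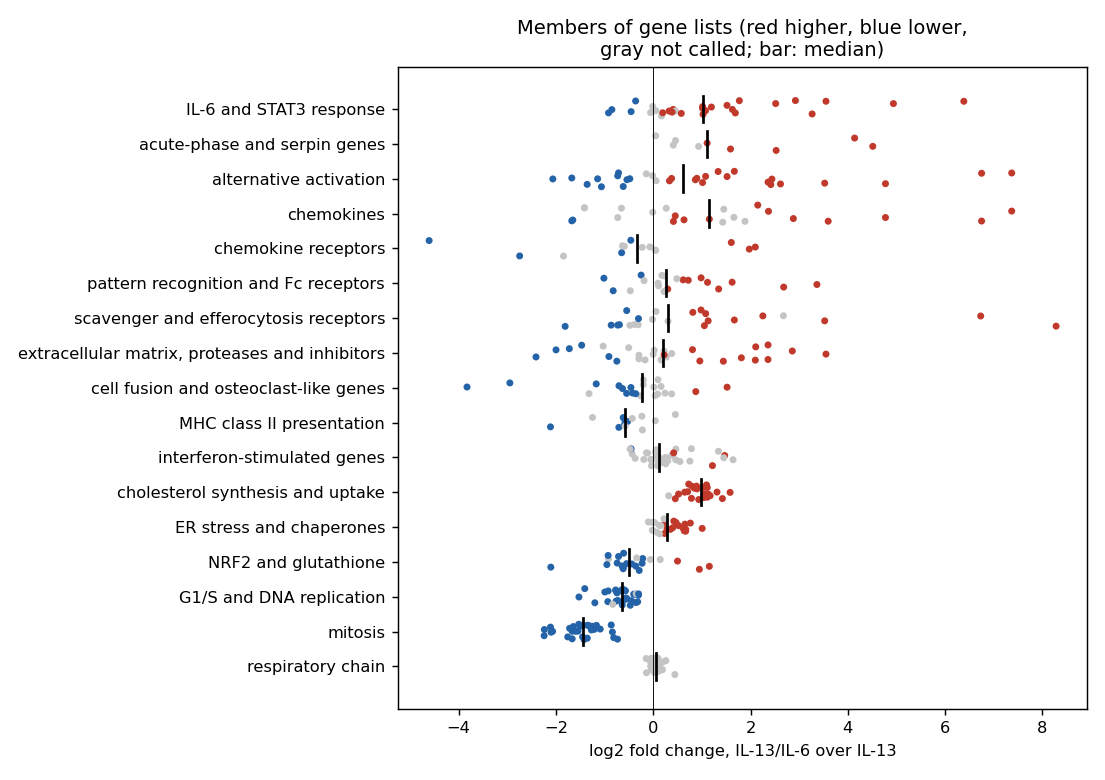
Log2 fold change of IL-13/IL-6 over IL-13 for the tested members of 17 gene lists (each point is a gene, the bar the median of the list). Mitosis and G1/S genes lie to the left of 0 and cholesterol genes to the right, the chemokine and alternative activation lists spread to both sides, and the respiratory chain stays near 0.

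The effect of IL-6 could be set beside its effect on macrophages given IL-4, since the comparisons share no library. IL-6 changed 5488 genes with IL-4. Of the 3563 genes changed with IL-13, 2964 were also called with IL-4 (83.2% of the calls with IL-13, against 39.4% of all genes called with IL-4, and 54.0% of the calls with IL-4, against 25.6% of all genes called with IL-13), and 2929 of these had the same direction. The difference of the effects was called in 1065 genes (7.64%), of which 616 had a positive and 449 a negative difference (IL-13 minus IL-4). In 903 of the 1065 the change was smaller in size with IL-13, in 162 it was larger, and in 260 the signs differed, although only 35 of those were called in both comparisons. The IL-4/IL-6 libraries were less alike than the others, with a biological coefficient of variation of 14.8% and a dependence on gene length in replicate 2 (rho -0.41).

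Genes that IL-6 moved more, or upward, with IL-13 included the chemokine receptor gene Ccr3 (log2 fold change 1.98 with IL-13 and 0.53 with IL-4, difference 1.45 ± 0.15 (SE), adjusted p = 6.41e-06) and the scavenger receptor gene Cd5l (2.25 and 1.09, difference 1.17 ± 0.13 (SE), adjusted p = 2.49e-05). Of 24 cholesterol genes, 23 were called higher with IL-13, and 12 higher and 1 lower with IL-4 (where 20.7% of all genes were higher and 18.7% lower). The difference was called for 20 of the 24, among them Mvd (difference 0.71 ± 0.12 (SE), adjusted p = 0.00127) and Fdft1 (difference 0.99 ± 0.12 (SE), adjusted p = 5.16e-05). Pdgfb, a growth factor chain, and Nes, which encodes the filament protein nestin, fell with both cytokines but less with IL-13, with log2 fold changes of -1.86 and -4.10 for Pdgfb (difference 2.24 ± 0.17 (SE), adjusted p = 4.07e-07). Smaller rises with IL-13 were found for Il4ra (4.94 and 6.02, difference -1.08 ± 0.10 (SE), adjusted p = 3.21e-06), Cd163 (1.67 and 3.76, difference -2.09 ± 0.20 (SE), adjusted p = 3.21e-06) and Il1r1, the IL-1 receptor (1.52 and 3.50, difference -1.98 ± 0.24 (SE), adjusted p = 4.6e-05). For the mitosis list the medians were -1.45 with IL-13 and -1.69 with IL-4, and all 30 members were called lower in both.

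**Figure D5:**
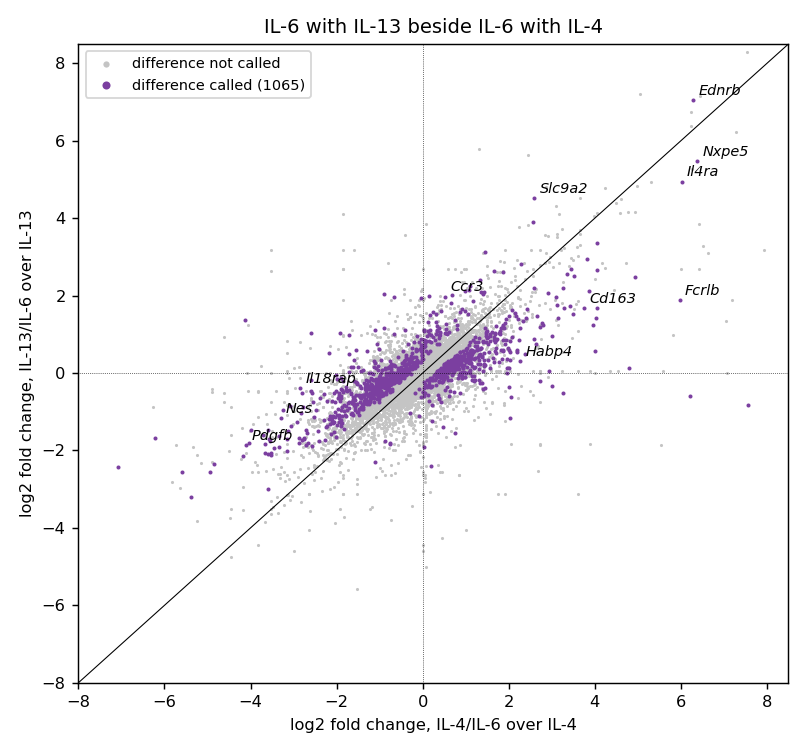
Log2 fold change made by IL-6 with IL-13 (vertical) against that with IL-4 (horizontal) for all genes tested; the line marks equal effects. Purple points are the 1065 genes whose difference was called, most of which lie nearer 0 with IL-13 than with IL-4.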

How the data were processed

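RNAseq of 15 BMDM libraries was analyzed from the raw counts per gene that the authors deposited (53465 genes, none of them normalized). Per the labels and the submitters' processing notes, CASAVA, Bowtie2 2.2.3, HISAT2 2.1.0, TopHat2 and DESeq2 were used with the genome build GRCm38, with no order given. How the counting treated strand is not given in the sources used here. The authors also deposited FPKM lists, which scale counts to library size and gene length and served here only to check levels. Tests used edgeR 4.0.16 in R 4.3.3: TMM factors, filterByExpr with a minimum count of 10, and the quasi-likelihood F-test with Benjamini-Hochberg adjustment over all 13938 genes tested, in 1 fit of all 15 libraries with 1 term per group. The difference of IL-6 effects was an interaction contrast of the same fit. Library totals ran from 17001352 to 18918686 counts. Gene symbols, coordinates and promoter sequences came from GRCm38 annotation and RefSeq.

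The fit was run on simulated counts with known changes, drawn with 1 spread per group. It called 69.7%, 95.5% and 98.5% of changes of 0.5, 1 and 2 on the log2 scale, and 0.08% of unchanged genes. The simulated counts held neither a spread that differs by gene nor the gene-length deviation of IL-13 replicate 1, so they do not test the fit under these. The comparison, the 47 gene lists and the genes named were chosen with earlier results of these data known. Named were the 15 largest fold changes in each direction among genes called, without overlap of the libraries and with at least 5 normalized CPM in the higher group (Gm and Rik symbols left out), the 10 largest gains and losses, genes the study names, up to 3 members per list and direction and its 2 most abundant, and the 8 largest interactions and IL-4-induced changes in each direction. Lists described by counts leave some of these out, and a few genes are not reported here. Bounds of fold against a group at or near 0 counts used a floor of 3 counts per library. Alternatives were DESeq2 1.42.0, upper-quartile factors, other filters and library subsets, a replicate block, glmTreat, and each library left out.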

Additional observations from a re-analysis of the deposited data

Results flagged for a closer look

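Each gene here stood out because the effect of IL-6 with IL-13 differed from the effect of IL-6 with IL-4 in edgeR's interaction test (adjusted p under 0.05); values are the difference of log2 fold changes, IL-13 minus IL-4. Among the genes described above or chosen by the rule for named genes, differences above 1 were those of Il18rap (2.45), Pdgfb (2.24), Nes (2.14), Vegfc (2.11), Nxpe1-ps (2.03), Ptgs2 (1.96), Slc9a2 (1.92), C4b (1.67), Il1rl1 (1.51), Irf4 (1.45), Ccr3 (1.45), Saa3 (1.35), Cd5l (1.17) and Axl (1.07). Smaller positive differences were found for Fdft1 (0.99), Ednrb (0.76), Ccr1 (0.74), Mvd (0.71), Spp1 (0.68), Pcna (0.65), Cd36 (0.61), Cd24a (0.60), Igf1 (0.57), Egr2 (0.54), Anxa1 (0.52), Lpl (0.49), Cdh1 (0.46), Mcm6 (0.35) and Psap (0.28). Negative differences were found for Fcrlb (-4.09), Hs3st3b1 (-2.66), Hcar2 (-2.60), Tgfbr3 (-2.45), Baiap2l1 (-2.37), Cd163 (-2.09), Il1r1 (-1.98), Habp4 (-1.96), Il4ra (-1.08), Pdcd1lg2 (-1.0), Nxpe5 (-0.90), Fcgr2b (-0.77), Cd274 (-0.73), Fcgrt (-0.68), Hmox1 (-0.67), Chil3 (-0.59), Pdia4 (-0.57) and Lgmn (-0.40). A positive difference holds genes that rose more with IL-13, such as Ccr3, and genes that fell less, such as Pdgfb. Under the alternatives, 56 of 846 recomputed interactions lost the call, most often those of Cd24a, Pdcd1lg2, Saa3 and C4b. Il1rl1 fell to 0.92 without IL-13/IL-6 replicate 2 and C4b to 1.08 without IL-4 replicate 1, and neither was then called (adjusted p = 0.144 and 0.2 in edgeR's test). No explanation was tested.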

How the results depend on the processing

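The counts of genes higher and lower (1684 and 1879) stayed within 1.5 times under every alternative run. Leaving out each of the 6 libraries gave 1328 to 1605 higher and 1574 to 1949 lower, 208 to 241 above a log2 fold change of 1.5 and 252 to 283 below -1.5. DESeq2 gave 1754 and 1969. glmTreat, which tests for a change beyond a log2 fold change of 1 in place of 0, called 177 genes higher and 178 lower without a further cut. The test against 0 with the added cut at a log2 fold change of 1.5 either way gave 228 and 270. For the difference between IL-6 effects, leaving out libraries gave 489 to 798 higher and 293 to 607 lower calls. The 293 came without IL-4 replicate 2, and the cause was not tested. With induction by IL-4 set at a log2 fold change above 1, which takes in 1396 genes, 209 were higher and 296 lower. The labels do not say whether replicate numbers pair the samples. Deviations of libraries with the same number correlated at 0.163, 0.118 and -0.05. These values cannot decide it, because libraries with unlike numbers were not set beside them. A fit with the replicate block called 1598 higher and 1770 lower, with 555 and 377 for the interaction. All 30 mitosis genes were lower under every alternative run for the lists.

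Upper-quartile factors lowered the share of calls that were higher from 47.3% to 40.4% (median of all genes -0.03). Of 1819 recomputed fold changes of named genes, 0 reversed, 3 lost the call and 2 gained it. Of 846 recomputed interactions, 0 reversed and 56 lost the call. Counts of 1 or 2 called members moved by 1 under some alternatives (lower calls of the chemokine, IL-4 and IL-13 signaling, monocyte, granulocyte and megakaryocyte lists). With 3 libraries a group, a gene that was not called is not shown to be unchanged.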
